A study of Mus musculus with 79 samples.

Results

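The genes described here are transcriptional targets of p53, together with TRP53, the gene of p53 itself, in mouse T cells that were turned into Th17 cells in culture with or without a small molecule. The members were 37 listed symbols, of which 35 were rows of the deposited table of 20465 genes (PIDD1 and SUSD6 were not found under those symbols), and 34 passed the filter on low values, which kept 10672 genes with at least 1 TPM in at least 4 libraries. TPM is a transcript level scaled for gene length and for the total of the library. GDF15, a secreted stress cytokine, reached 1 TPM in no library and was not tested. EDA2R, a receptor of the tumour necrosis factor family, reached 1 TPM only in libraries treated with EGCG. EDA2R therefore passed the filter only where it was high, and it had to differ: its calls are counted below but support nothing.

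The cells were differentiated under pathogenic conditions (Th17p, with IL1b, IL6 and IL23) or non-pathogenic conditions (Th17n, with TGFb and IL6). They received 20 µM EGCG (a green tea catechin) or its solvent DMSO, or 50 µM DHEA (a steroid) or its solvent methanol. Every culture carried the division dye CFSE, and RNA was taken either from unsorted cells (Total, called unsorted here) or from cells sorted for exactly 1 division (Div.1, called once-divided here). The design gives 5 mice per condition. That makes 16 groups, each with 5 libraries except the once-divided DMSO groups of both cell types, with 4, 78 libraries in all. One further library, from well A4, was labelled Th17n although the other wells of its row held Th17p cells, and was left out. The labels give no genotype, strain, sex or age, and mice are not matched across groups by name. DMSO and EGCG libraries sat in other well columns than methanol and DHEA libraries, so the compound pairs and the well columns cannot be told apart. No group used spanned more than 1 well row. Compound and solvent, the cell types and the sorts sat in different rows, so none of these can be told apart from the row.

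The libraries were alike within groups: correlations of log2(TPM + 1) between libraries of 1 group ran from 0.976 to 0.993. The table holds TPM without read numbers, so the depth behind each value is unknown and no counting error can be given. In bulk samples, fewer cells of a type and less RNA per cell cannot be told apart. The helper T cell genes CD4 and CD3E stood at 67.9 to 186 and 89.3 to 174 TPM over all libraries used. IL17A reached 549 TPM but was as low as 1.44 TPM. The library of replicate 1 in the EGCG groups was often the lowest: over 136 combinations of member and EGCG group, it held the lowest value in 67. The counts of members called with EGCG against DMSO are therefore also given as ranges without each library in turn.

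p53 is a transcription factor that is held at a low protein level by the ubiquitin ligase MDM2 and accumulates after DNA damage and other stresses. It binds pairs of a short DNA motif, the p53 decamer, and turns on genes that halt the cell cycle, trigger cell death, repair DNA, adjust metabolism, or feed back on p53 itself. The level of p53 protein is set mainly after transcription, so TRP53 mRNA and the mRNAs of its targets need not move together. In T cells p53 restrains proliferation after activation.

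To show what the members' promoters have in common apart from expression, the window from 250 bases before to 50 bases after each annotated start was searched on RefSeq sequence (GRCm38.p6) for the canonical p53 decamer, a palindrome of 10 bases that reads the same way on both strands. Of the 35 members, 27 had such windows. An exact decamer lay in 12 of them (44.4%), against 9.55% of the 27025 genes with a window and 7.800% of those kept in the fit. A full site, defined as 2 decamers that do not overlap, with at most 13 bases between them, the core C and G intact and at most 2 other mismatches, lay in 5 members (18.5%), against 4.71% of all genes with a window. The members are known p53 targets, so such sites are a description of the set and not a finding of these data. The stretches around these full sites follow, 5′ to 3′ on the gene's own strand, with the 2 decamers of the site in capitals. They show matches to the p53 decamer beside genes whose responses ranged from large (CDKN1A) to small (SESN1).
CDKN1A: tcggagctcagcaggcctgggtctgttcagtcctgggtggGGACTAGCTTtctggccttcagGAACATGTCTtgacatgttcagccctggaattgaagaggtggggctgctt
CCNG1: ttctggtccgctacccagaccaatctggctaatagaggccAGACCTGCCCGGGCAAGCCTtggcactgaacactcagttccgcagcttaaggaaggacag
BAX: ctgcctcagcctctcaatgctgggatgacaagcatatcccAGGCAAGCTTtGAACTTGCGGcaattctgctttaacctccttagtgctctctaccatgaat
RPS27L: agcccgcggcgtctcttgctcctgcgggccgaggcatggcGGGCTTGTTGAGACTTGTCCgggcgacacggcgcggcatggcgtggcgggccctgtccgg
SESN1: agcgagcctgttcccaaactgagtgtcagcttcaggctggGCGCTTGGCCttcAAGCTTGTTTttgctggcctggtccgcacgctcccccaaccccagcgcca

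The site in the CDKN1A stretch (chr17:29090866-29090977, plus strand) lies upstream of the gene and holds 2 decamers without mismatch, 12 bases apart. The pair with the fewest mismatches was marked. Directly after its second decamer stands a further decamer with 1 mismatch, left in small letters. The sites of CCNG1 (chr11:40755422-40755521, minus strand, 1 mismatch) and BAX (chr7:45467039-45467139, minus strand, 2 mismatches) are upstream of their genes as well. The site of RPS27L (chr9:66946256-66946355, plus strand, 1 mismatch) and that of SESN1 (chr10:41887213-41887315, plus strand, 2 mismatches) fall in introns of the GENCODE gene models, before internal RefSeq starts. No binding was measured, and a match of letters is not a bound site.

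EGCG raised most of the set in both cell types. In unsorted Th17p cells 28 of 34 members were called higher with EGCG, 0 lower, and 6 did not pass, where a call is an adjusted p under 0.05 in limma over all genes tested. Over all 10672 genes, 30.1% higher and 14.9% lower were called in that comparison. The median log2 change, on the log2(TPM + 1) scale, was 1.19 for the members and 0.09 for all genes. In once-divided Th17p cells 29 were higher and 2 lower, beside 33.7% higher and 11.9% lower of all genes, with medians of 1.39 and 0.12.

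Fewer members passed in Th17n cells and their median change was lower. In unsorted Th17n cells 24 members were called higher with EGCG and 0 lower, beside 21.7% higher and 13.5% lower of all genes. Their median log2 change was 0.64, against 0.05 for all genes. In once-divided Th17n cells 25 were higher and 2 lower, beside 28.1% higher and 6.77% lower of all genes, with medians of 0.80 and 0.11. The members higher in every one of these 4 EGCG comparisons numbered 23, and 29 were higher in at least 1. These patterns were not counted over all genes, so no share stands beside them. TRP53 and FDXR were called only as lower, and DDB2, XPC and ACER2 passed in none.

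DHEA raised members of the set in both cell types and lowered a few. In unsorted Th17p cells 20 members were called higher with DHEA and 4 lower, beside 20.9% higher and 26.8% lower of all genes, with a median log2 change of 0.27 (all genes -0.02). In once-divided Th17p cells 21 were higher and 1 lower, beside 18.1% higher and 19.2% lower of all genes, with a median of 0.47. In Th17n cells 20 were higher and 3 lower without sorting, beside 20.8% higher and 25.3% lower of all genes. In once-divided Th17n cells 19 were higher and 3 lower, beside 22.1% higher and 14.6% lower of all genes, and the median was 0.41 unsorted and 0.41 once divided. The members higher in all 4 DHEA comparisons numbered 12: CDKN1A, CCNG1, BTG2, PLK2, PMAIP1, APAF1, TRP53INP1, FAS, DDB2, POLK, ZMAT3 and DCXR. All of these but DDB2 were also higher in all 4 EGCG comparisons. How many of all genes show such patterns was not counted. MDM2, AEN, EDA2R and ACER2 passed in no DHEA comparison.

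**Figure D1:**
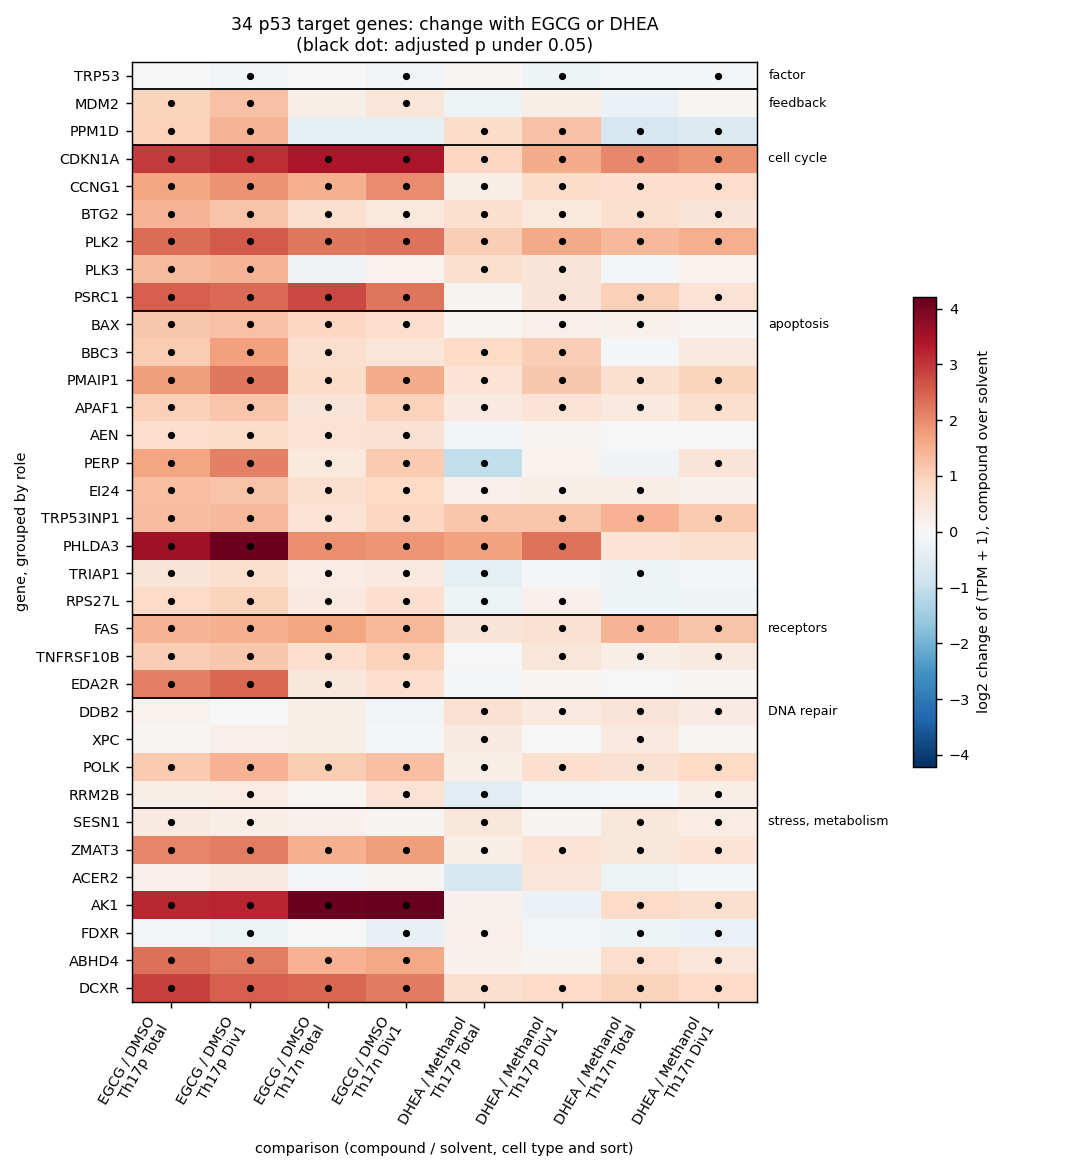
Heat map of the log2 change of (TPM + 1), compound over solvent, for 34 members (rows, grouped by role) in the 8 compound comparisons (columns). Red is higher and blue lower with the compound, and a black dot marks an adjusted p under 0.05. The 4 EGCG columns are red over most rows, with the DNA repair rows DDB2 and XPC pale, and the DHEA columns are paler.

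The balance of higher and lower calls over all genes depended on the scaling. When each library was rescaled by its median ratio to the others, calls over all genes with EGCG split into 2506 higher and 2256 lower in unsorted Th17p, 2430 higher and 2241 lower in once-divided Th17p, 1908 higher and 1912 lower in unsorted Th17n and 1642 higher and 1671 lower in once-divided Th17n cells. The median of all genes moved by -0.10 in once-divided Th17p and -0.11 in once-divided Th17n cells, so changes of that size are within the choice of scale. Members called under the rescaling numbered 28 higher and 2 lower, 27 and 2, 24 and 1, and 24 and 2 in the same order. Without any 1 of the libraries, the members called in either direction numbered 28 to 30, 30 to 31, 24 to 26 and 26 to 28.

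TRP53, the p53 gene itself, had log2 changes from -0.18 to 0.04 over the 8 compound comparisons. Unsorted Th17p cells held it at 276, 266, 271, 267 and 265 TPM with DMSO and at 249, 279, 262, 269 and 273 TPM with EGCG. The ranges overlapped, and the log2 change was -0.02 (SE 0.04, adjusted p = 0.78). Unsorted Th17n cells held 268, 269, 275, 277 and 279.6 TPM with DMSO and 258, 289, 279.9, 280.2 and 289 TPM with EGCG, also overlapping, with a change of 0.03 (SE 0.04, adjusted p = 0.605). In once-divided cells TRP53 was called lower with each compound. The changes there were -0.12 (adjusted p = 0.0122) with EGCG and -0.18 (adjusted p = 0.000125) with DHEA in Th17p cells, and -0.10 (adjusted p = 0.0439) and -0.09 (adjusted p = 0.0435) in Th17n cells. Rescaling moved the median of all genes by about as much as the EGCG changes of TRP53, and also downward (-0.10 in Th17p and -0.11 in Th17n cells). Under it the once-divided EGCG calls of TRP53 stayed. The Th17n calls with EGCG and with DHEA were lost without the filter on low values and in the fit on the groups compared alone. They were also lost without any 1 of 6 (EGCG) or 8 (DHEA) single libraries. After rescaling, TRP53 in unsorted Th17p cells was called lower with EGCG (-0.09) and higher with DHEA (0.08).

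The feedback genes differed between the cell types. MDM2, the ubiquitin ligase that marks p53 for destruction, stood at 36.4, 33.5, 49.2, 42.2 and 43.8 TPM in DMSO libraries of unsorted Th17p cells and at 86.4, 68.1, 98.2, 74.7 and 72.9 TPM with EGCG. All EGCG libraries lay above all DMSO libraries, and MDM2 rose by 0.95 (SE 0.16, adjusted p = 8.87e-07) on the log2 scale, and by 1.22 in once-divided cells (adjusted p = 8.09e-09). In unsorted Th17n cells the values were 32.2, 27.5, 34.7, 34.7 and 27.8 TPM with DMSO and 37.6, 47.6, 48.8, 24.9 and 32.3 TPM with EGCG. These groups overlapped, and the change of 0.24 (SE 0.16, adjusted p = 0.24) did not pass. The once-divided Th17n call (0.52, SE 0.17, adjusted p = 0.0117) was lost when the libraries were rescaled and without DMSO replicate 1. With DHEA, MDM2 passed in none of the 4 comparisons, with log2 changes from -0.24 to 0.27.

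PPM1D, the phosphatase WIP1 that switches off p53 signalling, moved in opposite directions in the cell types with DHEA. With DHEA it was at 11.8, 12.96, 13.9, 13.2 and 16.9 TPM in unsorted Th17p cells, against 6.096, 6.09, 6.47, 10.7 and 9.38 TPM with methanol, an increase of 0.78 (SE 0.19, adjusted p = 0.000521). Unsorted Th17n cells held 3.94, 3.61, 4.09, 3.58 and 4.22 TPM with DHEA and 5.19, 6.59, 6.71, 9.51 and 7.69 TPM with methanol, a decrease with a log2 change of -0.72 (SE 0.19, adjusted p = 0.00145). The DHEA libraries lay wholly above the methanol libraries in Th17p cells and wholly below them in Th17n cells. EGCG raised PPM1D in Th17p cells (0.96 unsorted and 1.42 once divided, adjusted p = 3.11e-05 and 2.76e-08). Its changes of -0.42 and -0.37 in Th17n cells did not pass.

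All 6 genes that slow or check the cell cycle were called higher with EGCG in Th17p cells, and 5 of 6 in Th17n cells, unsorted or once divided, PLK3 being the exception. With DHEA 5 of 6 were higher in unsorted cells of each type and in once-divided Th17n cells, and all 6 in once-divided Th17p cells. Of all genes, EGCG gave 30.1% and 33.7% higher in unsorted and once-divided Th17p cells, and 21.7% and 28.1% in Th17n cells. The shares with DHEA were 20.9% and 18.1% in Th17p cells, and 20.8% and 22.1% in Th17n cells. CDKN1A encodes p21, the inhibitor of cyclin-dependent kinases through which p53 stops the cycle. In unsorted Th17p cells it stood at 73.99, 59.6, 70.2, 36.2 and 62.6 TPM with DMSO and 442, 431, 481, 437 and 529 TPM with EGCG. The mean rose 7.67-fold, from 60.5 ± 14.7 TPM (SD, n = 5) to 464 ± 41.3 TPM (SD, n = 5), and the log2 change was 2.95 (SE 0.17, adjusted p = 3.45e-24). CDKN1A in unsorted Th17n cells was at 25.5, 17.3, 19.8, 12.2 and 18.8 TPM with DMSO and 221, 208, 229.8, 172 and 222 TPM with EGCG. The mean there rose 11.3-fold and the log2 change was 3.45 (SE 0.17, adjusted p = 1.66e-26). No DMSO library of either cell type reached the lowest EGCG library.

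With DHEA, CDKN1A was at 103, 129, 141, 99.1 and 158 TPM in unsorted Th17p cells, against 65.7, 64.2, 81.3, 59.1 and 71.9 TPM with methanol. Unsorted Th17n cells held 73.02, 98.9, 118, 85.6 and 119 TPM with DHEA and 25.1, 20.8, 25.8, 21.1 and 23.4 TPM with methanol. The groups did not overlap in either cell type, and the increase was 1.85-fold in Th17p (log2 change 0.86, SE 0.17, adjusted p = 1.39e-05) and 4.26-fold in Th17n cells (log2 change 2.02, SE 0.17, adjusted p = 1.9e-16). In once-divided cells the log2 changes were 3.11 and 3.43 with EGCG, and 1.55 and 1.89 with DHEA, in Th17p and Th17n cells, all called.

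CCNG1, cyclin G1, a classic p53 target that takes part in feedback through MDM2, was at 155, 125, 144, 98.2 and 121 TPM with DMSO and 433, 401, 407, 395 and 399 TPM with EGCG in unsorted Th17p cells. The Th17n counterparts held 86.3, 69.9, 71.9, 71.3 and 71.1 TPM with DMSO and 226, 224, 197, 203 and 209 TPM with EGCG. Both groups of EGCG libraries lay clear of their DMSO libraries, with log2 changes of 1.67 (SE 0.10, adjusted p = 2.07e-22) and 1.51 (SE 0.10, adjusted p = 1.78e-19). DHEA raised CCNG1 by 0.29 in unsorted Th17p cells (adjusted p = 0.0157), a call lost without DHEA replicate 10 or methanol replicate 10, and by 0.72 in unsorted Th17n cells (adjusted p = 1.92e-08).

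PSRC1, a microtubule-associated protein of the mitotic spindle, was at 29.6, 24.2, 27.1, 16.1 and 22.6 TPM with DMSO and 131, 141, 139, 147 and 145 TPM with EGCG in unsorted Th17p cells. The corresponding Th17n values were 7.73, 6.17, 8.22, 8.44 and 8.01 TPM and 54.7, 56.8, 64.96, 48.5 and 68.1 TPM. Neither pair of groups overlapped, and the log2 changes were 2.53 (SE 0.14, adjusted p = 1.51e-24) and 2.77 (SE 0.14, adjusted p = 1.15e-25). With DHEA its log2 change of 0.11 (SE 0.14, adjusted p = 0.551) in unsorted Th17p cells did not pass. PSRC1 in unsorted Th17n cells was at 10.9, 9.81, 8.35, 9.66 and 12.2 TPM with methanol and 18.3, 18.9, 23.9, 19.1 and 28.4 TPM with DHEA, an increase of 1.01 (SE 0.14, adjusted p = 8.13e-09) without overlap.

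PLK2, a polo-like kinase linked to the stress checkpoint, ran from 5.87 to 9.701 TPM with DMSO and from 40.6 to 45.6 TPM with EGCG in unsorted Th17p cells. With DHEA in once-divided Th17p cells it was at 32.6, 23.5, 35.6, 22.96 and 29.1 TPM, against 8.87, 6.34, 14.3, 6.03 and 9.88 TPM with methanol, a log2 change of 1.60 (SE 0.17, adjusted p = 4.3e-12). PLK2 was higher in all 8 compound comparisons, by 1.03 to 2.57 on the log2 scale. BTG2, an antiproliferative regulator of mRNA decay, was also higher in all 8, by 0.43 to 1.44. BTG2 in unsorted Th17p cells was at 31.9, 34.3, 35.1, 35.01 and 38.8 TPM with methanol and 47.6, 56.9, 57.2, 53.9 and 66.5 TPM with DHEA, without overlap. The unsorted Th17n libraries held 29.3, 30.3, 23.8, 27.4 and 28.1 TPM with methanol and 48.2, 39.1, 44.1, 40.4 and 53.3 TPM with DHEA, also apart. PLK3, a related kinase, had log2 changes with EGCG of 1.32 (SE 0.20, adjusted p = 6.96e-08) in unsorted Th17p and -0.15 (SE 0.20, adjusted p = 0.6) in unsorted Th17n cells, of which the first was called. PLK3 overlaps Tctex1d4 on the opposite strand, so reads of the pair may be mixed.

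**Figure D2:**
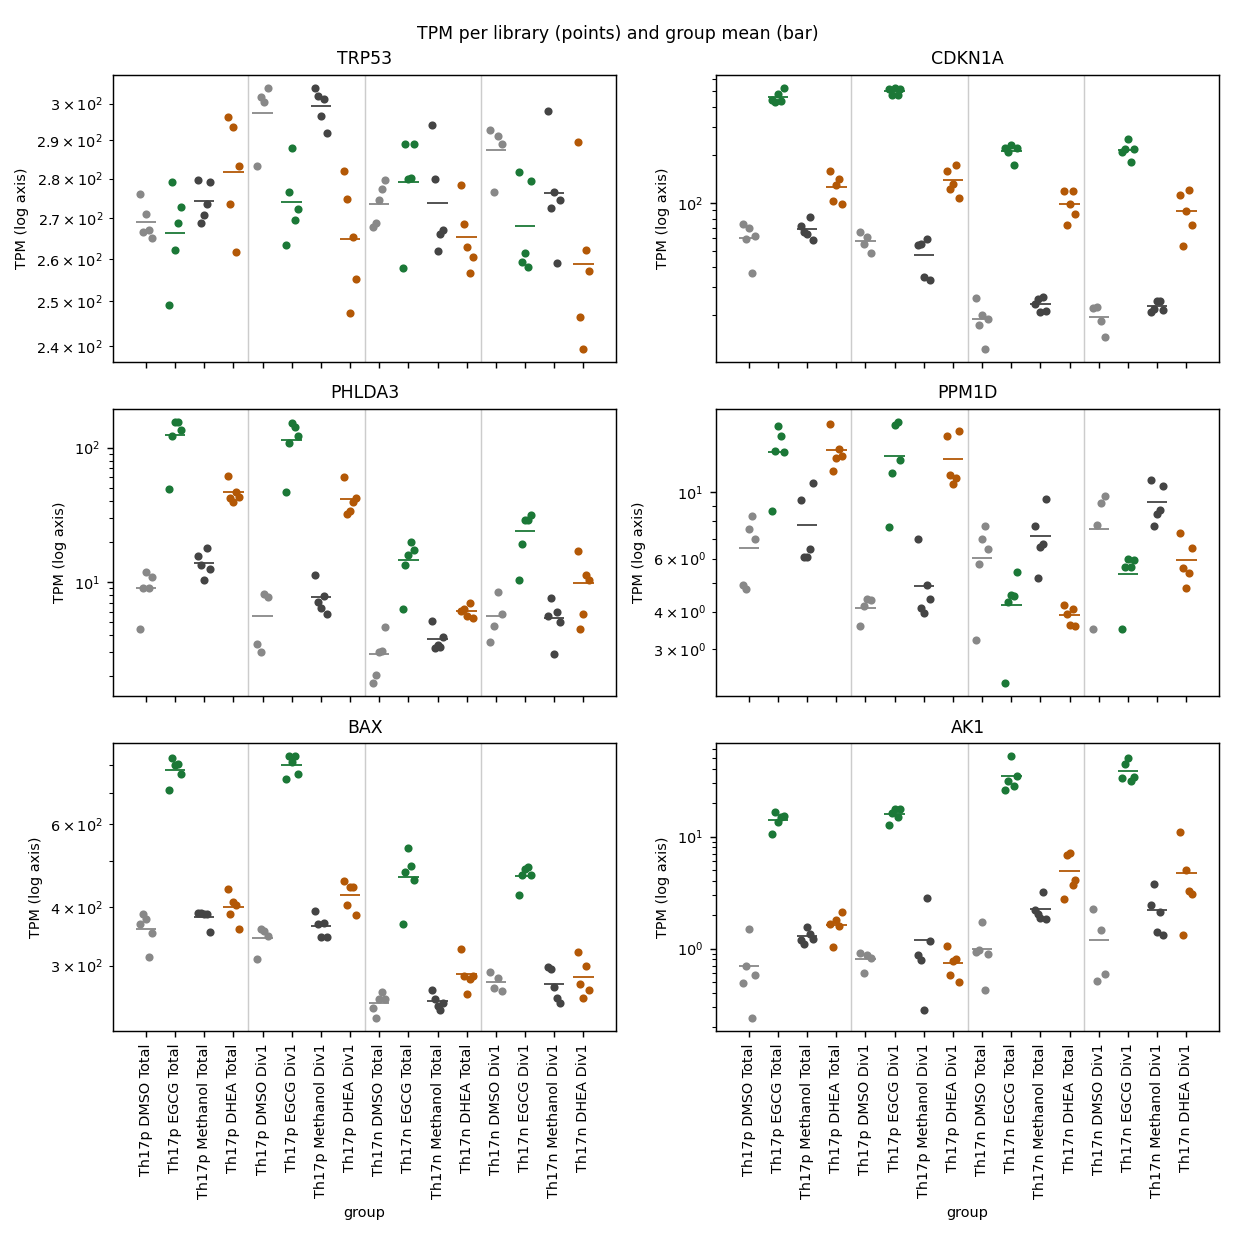
TPM per library on a log axis for 6 members in the 16 groups (x axis), with each point a library, each bar the group mean and colours marking DMSO (light grey), EGCG (green), methanol (dark grey) and DHEA (orange). CDKN1A, PHLDA3, BAX and AK1 stand higher with EGCG in all 4 settings, PPM1D is higher with both compounds in Th17p cells and lower with DHEA in Th17n cells, and TRP53 keeps to a narrow range (its axis spans less than the others).

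Of the 11 tested genes of mitochondrial and related cell death, all were called higher with EGCG in Th17p cells, unsorted and once divided, and in unsorted Th17n cells, and 10 in once-divided Th17n cells. The shares of all genes called higher in these comparisons were 30.1%, 33.7%, 21.7% and 28.1%, in the same order. BAX, which permeabilises the mitochondrial outer membrane, was at 369, 386, 376, 313 and 352 TPM with DMSO and 709.6, 831, 804, 807 and 768 TPM with EGCG in unsorted Th17p cells. Its unsorted Th17n values were 244, 232, 255, 264 and 255 TPM with DMSO and 367, 474, 533, 488 and 457 TPM with EGCG. The groups were apart in both, with increases of 2.18-fold (log2 change 1.13, SE 0.06, adjusted p = 6.53e-24) and 1.86-fold (log2 change 0.88, SE 0.06, adjusted p = 4.14e-18). With DHEA the log2 changes of BAX were 0.06 and 0.19 in unsorted Th17p and Th17n cells (adjusted p = 0.433 and 0.0126), the second lost without DHEA replicate 10. BAX overlaps Gm45808 on the same strand.

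PHLDA3, which competes with the kinase AKT for membrane lipids, had the largest change of any member on the log2(TPM + 1) scale in Th17p cells with EGCG (by mean TPM, AK1 in unsorted cells had the larger ratio, from 0.702 to 14.1 TPM). It was at 4.48, 9.07, 11.8, 9.08 and 10.9 TPM with DMSO and 49.3, 121, 155, 155 and 136 TPM with EGCG in unsorted cells. The EGCG library of replicate 1 was the lowest of its group, yet above every DMSO library, and the log2 change was 3.58 (SE 0.30, adjusted p = 1.53e-16). PHLDA3 in unsorted Th17n cells was at 1.76, 2.04, 3.02, 3.06 and 4.61 TPM with DMSO and 6.34, 13.4, 15.7, 19.9 and 17.2 TPM with EGCG, with a change of 1.95 (SE 0.30, adjusted p = 2.63e-07). DHEA took it from 13.4, 10.3, 17.8, 12.5 and 15.6 TPM to 41.9, 39.6, 46.9, 42.9 and 61.9 TPM in unsorted Th17p cells, again without overlap (1.68, SE 0.30, adjusted p = 2.21e-06). Its DHEA changes of 0.57 and 0.67 in unsorted and once-divided Th17n cells did not pass (adjusted p = 0.11 and 0.0705). All unsorted DHEA libraries lay above the methanol libraries there, and the unsorted change passed in the fit on those groups alone (adjusted p = 0.00189). The once-divided change, with overlapping groups, passed without any 1 of DHEA replicates 6 and 7 and methanol replicate 6 (adjusted p = 0.0197, 0.0398 and 0.0462).

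The BH3-only genes PMAIP1 and BBC3, which encode NOXA and PUMA and release BAX-type killers from their inhibitors, were among the less abundant members. PMAIP1 was at 3.64, 2.84, 3.82, 2.46 and 3.88 TPM with DMSO and 13.9, 12.2, 15.2, 12.2 and 14.1 TPM with EGCG in unsorted Th17p cells, a change of 1.76 (SE 0.16, adjusted p = 5.8e-15) without overlap. Unsorted Th17n cells held 6.900, 7.43, 6.76, 5.41 and 6.39 TPM and 6.25, 14.2, 14.1, 11.7 and 16.3 TPM, groups that overlapped, with a change of 0.78 (SE 0.16, adjusted p = 7.56e-05). DHEA raised PMAIP1 in all 4 comparisons, by 0.59 to 1.13.

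BBC3 stayed low throughout: unsorted Th17p cells held 1.64, 2.64, 1.95, 2.69 and 1.86 TPM with DMSO and 4.76, 5.36, 7.61, 4.65 and 6.21 TPM with EGCG. The groups did not overlap and the change was 1.09 (SE 0.19, adjusted p = 2.66e-06). Unsorted Th17n cells held 0.541, 1.16, 1.64, 1.99 and 1.65 TPM with DMSO and 3.42, 3.15, 2.68, 2.37 and 2.17 TPM with EGCG (0.67, SE 0.19, adjusted p = 0.00389). In once-divided Th17n cells its change of 0.49 (SE 0.20, adjusted p = 0.0501) did not pass, but it did with well A4 in its labelled group (adjusted p = 0.0374) and without any 1 of DMSO replicates 2 and 3 and EGCG replicate 1 (adjusted p = 0.0468, 0.0324 and 0.0164). DHEA raised BBC3 in Th17p cells (0.83 and 1.03, adjusted p = 0.000196 and 1.23e-05), and its changes in Th17n cells (-0.05 and 0.42) did not pass, of which the once-divided one did without DHEA replicate 7 or methanol replicate 10 (adjusted p = 0.0173 and 0.0227).

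TRP53INP1, a stress protein that promotes p53 phosphorylation, rose with both compounds. It was at 9.58, 8.64, 9.26, 8.22 and 8.49 TPM with methanol and 31.4, 22.3, 26.2, 23.3 and 28.5 TPM with DHEA in unsorted Th17n cells, a change of 1.47 (SE 0.12, adjusted p = 5.2e-16). The same groups in Th17p cells were at 7.76, 6.78, 7.52, 6.11 and 7.49 TPM and 15.7, 15.1, 15.6, 18.1 and 22.97 TPM, a change of 1.17 (SE 0.12, adjusted p = 1.72e-12). Neither pair overlapped, and the EGCG changes in unsorted cells were 1.29 and 0.57 in Th17p and Th17n cells, both called.

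PERP, a tetraspan membrane protein of the death pathway, rose with EGCG and fell with DHEA in unsorted Th17p cells. It was at 19.3, 27.1, 22.6, 25.9 and 23.3 TPM with DMSO and 63.7, 84.95, 74.5, 78.1 and 80.6 TPM with EGCG (1.65, SE 0.13, adjusted p = 9.2e-18). Against 33.9, 40.5, 41.6, 33.2 and 31.8 TPM with methanol, DHEA libraries held 17.7, 12.9, 23.5, 13.2 and 20.00 TPM (-1.04, SE 0.13, adjusted p = 3.07e-10). Neither pair of groups overlapped. In once-divided Th17p cells the DHEA change of PERP was 0.15 (SE 0.13, adjusted p = 0.396), which did not pass.

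APAF1, the apoptosome scaffold, rose in all 4 EGCG comparisons, by 0.53 to 1.16 on the log2 scale, and in all 4 DHEA comparisons, by 0.40 to 0.66. AEN, a p53-induced nuclease, rose by 0.60 to 0.78 with EGCG and passed in no DHEA comparison (-0.12 to 0.10). EI24, a protein of the endoplasmic reticulum, rose by 0.68 to 1.26 with EGCG. TRIAP1, a small mitochondrial protein that opposes apoptosis, rose by 0.32 to 0.66 with EGCG. TRIAP1 in unsorted Th17p cells was at 64.7, 65.5, 57.7, 59.8 and 61.4 TPM with methanol and 51.8, 40.7, 56.4, 43.5 and 45.05 TPM with DHEA, and it fell there with a log2 change of -0.38 (SE 0.06, adjusted p = 1.59e-07), the groups lying apart. RPS27L, a ribosomal protein homologue that modulates MDM2, rose by 0.41 to 0.94 with EGCG, and its reads may be shared with the close copy RPS27.

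The death receptors rose with EGCG in both cell types. FAS, the receptor through which activated T cells are removed, was at 37.7, 30.8, 41.5, 30.9 and 30.3 TPM with DMSO and 88.1, 103, 103, 86.4 and 87.00 TPM with EGCG in unsorted Th17p cells. The Th17n counterparts held 12.4, 11.2, 13.7, 10.5 and 13.2 TPM with DMSO and 54.4, 38.98, 41.4, 31.2 and 38.9 TPM with EGCG. Both pairs of groups were apart, with changes of 1.43 (SE 0.13, adjusted p = 1.4e-15) and 1.65 (SE 0.13, adjusted p = 1.63e-17). With DHEA, FAS was at 36.3, 25.8, 30.8, 30.5 and 33.9 TPM in unsorted Th17n cells, against 13.3, 10.7, 12.4, 9.25 and 9.96 TPM with methanol (1.42, SE 0.13, adjusted p = 2.39e-15), and its change in unsorted Th17p cells was 0.54 (SE 0.13, adjusted p = 0.000212).

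TNFRSF10B, the mouse receptor of the death ligand TRAIL, rose by 0.69 to 1.15 in all 4 EGCG comparisons. With DHEA it passed in 3 of 4, all but unsorted Th17p cells (0.03, SE 0.08, adjusted p = 0.777). EDA2R was at 4.21, 4.57, 4.38, 4.15 and 6.31 TPM with EGCG in unsorted Th17p cells, against 0.271, 0.813, 0.339, 0 and 0.2800 TPM with DMSO. In unsorted Th17n cells it was listed at 0 in all 5 DMSO libraries and at 0.0426, 0.235, 0.6198, 0.428 and 0.703 TPM with EGCG, and no fold is given.

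The DNA repair genes were split. DDB2, which recognises ultraviolet damage, was at 12.4, 12.2, 15.7, 12.2 and 12.1 TPM with DMSO and 14.8, 17.1, 14.4, 10.2 and 16.1 TPM with EGCG in unsorted Th17p cells. The ranges overlapped, the change of 0.15 (SE 0.11, adjusted p = 0.287) did not pass, and without EGCG replicate 4 it was 0.26 (adjusted p = 0.0462). In unsorted Th17n cells the EGCG change of 0.26 (SE 0.11, adjusted p = 0.0546) did not pass either, but it did without any 1 of DMSO replicates 1, 2 and 5 and EGCG replicate 3 (adjusted p = 0.0348, 0.0483, 0.0408 and 0.0141). The once-divided EGCG changes of DDB2 were -0.02 in Th17p and -0.13 in Th17n cells and did not pass. With DHEA in unsorted Th17p cells it was at 20.6, 18.6, 18.4, 19.5 and 19.8 TPM, against 12.05, 12.4, 11.1, 11.4 and 13.6 TPM with methanol. These groups did not overlap, and the change was 0.64 (SE 0.11, adjusted p = 1.09e-06). DDB2 was higher with DHEA in all 4 comparisons, by 0.36 to 0.64, and it overlaps Acp2 on the opposite strand.

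XPC, the partner of DDB2 in damage recognition, had log2 changes of -0.08 to 0.25 with EGCG, none of them called, and was higher with DHEA in unsorted cells (0.38 in Th17p and 0.43 in Th17n, adjusted p = 0.00147 and 0.0004). POLK, a polymerase that copies past lesions, rose in all 8 comparisons, by 1.06 to 1.47 with EGCG. In once-divided Th17n cells POLK was at 3.44, 4.300, 4.54, 2.75 and 4.82 TPM with methanol and 6.91, 6.45, 7.43, 7.45 and 10.97 TPM with DHEA (0.83, SE 0.10, adjusted p = 1.02e-09). Its DHEA call in unsorted Th17p cells (0.27, SE 0.10, adjusted p = 0.0269) was lost without any 1 of DHEA replicates 7, 8 and 10 or methanol replicates 7, 9 and 10. POLK overlaps Gm17622 on the opposite strand. RRM2B, the p53-induced ribonucleotide reductase subunit, ran from 2.701 to 3.105 TPM with DMSO and from 2.73 to 4.33 TPM with EGCG in unsorted Th17p cells, overlapping ranges. It was called higher with EGCG in once-divided cells (0.30 in Th17p and 0.61 in Th17n) and lower with DHEA in unsorted Th17p cells (-0.45, SE 0.11, adjusted p = 0.000369).

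Among the stress and metabolism genes, ZMAT3, an RNA-binding zinc finger protein, was at 7.396, 8.03, 7.33, 5.82 and 7.54 TPM with DMSO and 30.6, 32.1, 33.1, 34.3 and 33.4 TPM with EGCG in unsorted Th17p cells. The unsorted Th17n libraries held 4.897, 3.61, 5.29, 4.699 and 5.48 TPM with DMSO and 10.6, 15.8, 17.5, 17.5 and 15.96 TPM with EGCG. The groups were apart in both, and the changes were 2.04 (SE 0.11, adjusted p = 8.09e-26) and 1.50 (SE 0.11, adjusted p = 1.3e-18). With DHEA, ZMAT3 changed by 0.27 to 0.59, and the call in unsorted Th17p cells (adjusted p = 0.0314) was lost without the filter on low values and without any 1 of DHEA replicates 8 and 10 or methanol replicates 7, 9 and 10.

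AK1, adenylate kinase, which balances adenine nucleotides, was the member raised most by EGCG in Th17n cells. It was at 0.941, 0.971, 1.74, 0.425 and 0.902 TPM with DMSO and 25.8, 31.2, 51.9, 28.4 and 34.7 TPM with EGCG in unsorted Th17n cells, and at 2.24, 0.513, 1.48 and 0.592 TPM and 33.1, 43.99, 50.3, 31.4 and 33.8 TPM in once-divided ones. The log2 changes were 4.14 (SE 0.24, adjusted p = 2.31e-22) and 4.21 (SE 0.26, adjusted p = 3.35e-21). AK1 in unsorted Th17p cells was at 0.492, 0.696, 1.49, 0.242 and 0.587 TPM with DMSO and 10.6, 16.5, 13.5, 14.9 and 15.2 TPM with EGCG (3.18, SE 0.24, adjusted p = 6.21e-18). No EGCG library overlapped a DMSO library in these comparisons. With DHEA, AK1 rose by 0.82 (SE 0.24, adjusted p = 0.00426) in unsorted Th17n cells, and its log2 changes of 0.20 and -0.24 in Th17p cells did not pass. Its once-divided Th17n call with DHEA (0.67, SE 0.24, adjusted p = 0.0256) was lost with a pseudocount of 0.1, in the fit on those groups alone, and without any 1 of DHEA replicates 7 and 10 or methanol replicates 7 and 9.

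DCXR, dicarbonyl and xylulose reductase, was at 9.96, 10.1, 14.4, 8.21 and 11.4 TPM with DMSO and 74.96, 88.99, 89.3, 82.96 and 91.3 TPM with EGCG in unsorted Th17p cells, an increase of 7.92-fold (log2 change 2.89, SE 0.14, adjusted p = 1.69e-27). Its unsorted Th17n values were 8.57, 6.43, 7.52, 5.86 and 9.16 TPM and 41.9, 40.2, 54.5, 35.7 and 52.2 TPM (2.43, SE 0.14, adjusted p = 4.02e-23). DCXR was higher in all 4 DHEA comparisons too, by 0.67 to 0.94. ABHD4, a lipid hydrolase, was at 13.8, 14.1, 13.8, 11.8 and 13.97 TPM with DMSO and 65.3, 74.5, 74.3, 67.5 and 78.7 TPM with EGCG in unsorted Th17p cells (2.33, SE 0.11, adjusted p = 2.25e-28). In once-divided Th17p cells ABHD4 ran from 14.5 to 16.9 TPM with DMSO and from 62.2 to 81.2 TPM with EGCG. All the EGCG groups of DCXR and ABHD4 in unsorted cells lay above their DMSO groups.

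SESN1, a sestrin that restrains growth signalling, rose little with EGCG in Th17p cells (0.38 and 0.28, adjusted p = 0.000112 and 0.00796) and did not pass in Th17n cells (0.19 and 0.11). FDXR, the ferredoxin reductase of mitochondria, was at 58.96, 58.5, 57.5 and 51.4 TPM with DMSO and 45.9, 43.4, 42.2, 44.4 and 48.5 TPM with EGCG in once-divided Th17n cells, and fell with a log2 change of -0.33 (SE 0.07, adjusted p = 0.000179). It fell in once-divided Th17p cells as well (-0.23, SE 0.07, adjusted p = 0.00647). Both pairs of groups lay apart. Well A4, which was left out, held FDXR at 32.3 TPM, below every EGCG library of once-divided Th17n cells. With it in its labelled group those Th17n groups overlap, and the call with it is not given here. ACER2, an alkaline ceramidase, passed in none of the 8 compound comparisons and had changes from -0.70 to 0.52.

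Several of these genes are given here for once-divided cells, in which each cell had passed 1 division by its dye content. With EGCG in once-divided Th17p cells ABHD4 was at 15.9, 14.5, 15.4 and 16.9 TPM with DMSO and 62.2, 71.3, 81.2, 78.3 and 74.1 TPM with EGCG. ZMAT3 was at 6.23, 6.98, 7.92 and 7.19 TPM with DMSO and 33.2, 35.2, 34.4, 35.95 and 34.1 TPM with EGCG. DCXR was at 11.96, 15.6, 10.8 and 13.9 TPM with DMSO and 70.7, 74.6, 81.8, 86.5 and 79.7 TPM with EGCG. In each of these stress and metabolism genes all EGCG libraries lay above all DMSO libraries, with log2 changes of 2.15, 2.14 and 2.51. BAX was at 309, 359.8, 355 and 347 TPM with DMSO and 747, 836, 815, 836 and 769 TPM with EGCG. CDKN1A was at 66.2, 55.4, 61.3 and 48.6 TPM with DMSO and 519.6, 477, 523, 476 and 520.3 TPM with EGCG. CCNG1 was at 138, 99.3, 123 and 108 TPM with DMSO and 456, 424, 427, 443 and 436 TPM with EGCG. These too were apart, with log2 changes of 1.22, 3.11 and 1.90.

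In once-divided Th17n cells, with 4 DMSO libraries, CDKN1A was at 21.9, 22.3, 18.2 and 14.6 TPM with DMSO and 209.7, 217, 251, 180.4 and 219 TPM with EGCG. CCNG1 was at 58.8, 58.6, 59.7 and 53.6 TPM with DMSO and 214, 244, 252, 244 and 208 TPM with EGCG. PSRC1 was at 12.5, 13.7, 10.8 and 11.8 TPM with DMSO and 53.02, 64.7, 66.8, 63.9 and 63.9 TPM with EGCG. The EGCG and DMSO groups of these cell cycle genes did not overlap, and their log2 changes were 3.43, 1.99 and 2.27. ZMAT3 was at 4.73, 4.37, 4.65 and 4.92 TPM with DMSO and 12.6, 19.1, 19.5, 20.8 and 20.5 TPM with EGCG. DCXR was at 9.98, 5.48, 8.95 and 6.56 TPM with DMSO and 33.3, 40.1, 43.9, 35.2 and 37.5 TPM with EGCG. Both were apart, with log2 changes of 1.76 and 2.18, and replicate 1 was the lowest EGCG library in each.

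With DHEA in once-divided Th17p cells TRP53INP1 was at 5.85, 5.96, 7.71, 4.27 and 6.17 TPM with methanol and 13.3, 13.6, 17.1, 13.9 and 15.5 TPM with DHEA. PHLDA3 was at 7.11, 6.41, 7.93, 5.75 and 11.3 TPM with methanol and 32.1, 33.7, 39.5, 42.2 and 60.03 TPM with DHEA. PMAIP1 was at 2.62, 2.35, 3.28, 1.45 and 2.27 TPM with methanol and 8.08, 4.25, 7.504, 5.54 and 7.02 TPM with DHEA. In these genes of the death pathway the DHEA libraries lay above the methanol libraries, with log2 changes of 1.18, 2.28 and 1.13. CDKN1A was at 55.5, 34.6, 59.98, 32.8 and 54.6 TPM with methanol and 122, 133, 173, 107 and 159 TPM with DHEA. CCNG1 was at 124, 99.02, 143, 86.8 and 95.5 TPM with methanol and 173, 182, 201, 172 and 196 TPM with DHEA. Their groups were apart as well, with log2 changes of 1.55 and 0.77.

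In once-divided Th17n cells with DHEA, CDKN1A was at 21.6, 24.3, 24.3, 21.4 and 20.9 TPM with methanol and 54.1, 89.1, 121, 72.7 and 112 TPM with DHEA. CCNG1 was at 55.9, 55.7, 66.9, 61.6 and 67.1 TPM with methanol and 79.4, 109.9, 106, 91.2 and 134 TPM with DHEA. PLK2 was at 1.698, 1.54, 2.403, 3.21 and 4.05 TPM with methanol and 6.75, 8.15, 9.37, 8.22 and 13.3 TPM with DHEA. No DHEA library of these cell cycle genes fell into the methanol range, and the log2 changes were 1.89, 0.73 and 1.52. FAS was at 12.2, 16.2, 9.903, 10.2 and 16.2 TPM with methanol and 30.6, 24.8, 35.9, 28.7 and 34.1 TPM with DHEA. TRP53INP1 was at 8.37, 9.14, 10.3, 9.97 and 12.02 TPM with methanol and 19.5, 18.6, 27.01, 19.8 and 28.8 TPM with DHEA. Their DHEA libraries were likewise the higher, with log2 changes of 1.21 and 1.10.

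PLK2 rose with DHEA in unsorted cells too. Unsorted Th17p cells held 8.72, 10.6, 11.6, 7.94 and 10.7 TPM with methanol and 18.96, 20.8, 21.1, 20.3 and 25.1 TPM with DHEA. Unsorted Th17n cells held 2.93, 1.79, 2.001, 3.15 and 4.54 TPM with methanol and 9.198, 7.100, 7.37, 9.19 and 10.6 TPM with DHEA. The groups did not overlap in either, with log2 changes of 1.03 and 1.35.

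With solvent alone, the set was higher in Th17p than in Th17n cells for most members. In unsorted cells 23 were called higher in Th17p and 4 lower, beside 30.9% higher and 26.5% lower of all genes, with both solvents averaged. In once-divided cells 24 were higher and 6 lower, beside 34.9% higher and 25.7% lower of all genes. FAS (a log2 difference of 1.58, SE 0.09, adjusted p = 1.56e-25), PSRC1 (1.55, SE 0.10, adjusted p = 1.8e-22) and CDKN1A (1.58, SE 0.12, adjusted p = 3.11e-19) were among those higher in unsorted Th17p cells, with CDKN1A means of 60.5 TPM against 18.7 TPM under DMSO. AEN (0.62, adjusted p = 1.25e-21) and POLK (0.95, adjusted p = 1.14e-18) were higher as well. FDXR was lower in Th17p cells, by a log2 difference of -0.73 (SE 0.05, adjusted p = 3.7e-22), as were PMAIP1 (-0.87) and PLK3 (-0.76). In once-divided cells ABHD4 (0.95) and CCNG1 (0.90) were among the genes higher in Th17p cells with the smallest p. The cell types differ in their cytokines, and these comparisons do not separate one cytokine from another.

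The response to EGCG was larger in Th17p cells for many members, by a test of the difference between the responses. In unsorted cells the response of 16 members was called larger in Th17p and of 1 smaller, beside 12.4% higher and 7.55% lower of all genes. PERP (a difference of 1.19, SE 0.18, adjusted p = 9.89e-07 on the log2 scale), BTG2 (0.76, SE 0.12, adjusted p = 2.18e-06), ABHD4 (0.86, SE 0.15, adjusted p = 1.49e-05), PLK3 (1.47, SE 0.28, adjusted p = 6e-05) and PPM1D (1.38, SE 0.27, adjusted p = 9.85e-05) had the smallest p beside EDA2R. PHLDA3 (1.62), PMAIP1 (0.98), MDM2 (0.71) and BAX (0.25) were called too. AK1 was the one member with a smaller response in Th17p cells (-0.96, SE 0.35, adjusted p = 0.0396). The responses of CDKN1A differed by -0.50 (SE 0.24, adjusted p = 0.136) and those of PLK2 by 0.14 (SE 0.24, adjusted p = 0.747), neither of which passed. The EDA2R call was lost with a pseudocount of 0.1. Under rescaling, calls over all genes in this comparison split into 1206 higher and 1124 lower.

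In once-divided cells the EGCG response was larger in Th17p for 12 members and smaller for 1, beside 9.12% higher and 8.38% lower of all genes. PPM1D (1.79, SE 0.29, adjusted p = 3.43e-06), PHLDA3 (2.26, SE 0.44, adjusted p = 0.000105) and BAX (0.47, SE 0.10, adjusted p = 0.000182) were among the former. Over the 34 members the EGCG responses of unsorted Th17p and Th17n cells correlated with Pearson's r of 0.83 and Spearman's rho of 0.817, a description across genes that are not independent, and 26 of 34 changes were greater in Th17p cells.

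For DHEA the differences between cell types went both ways. In unsorted cells the response of 3 members was called greater in Th17p and of 6 lower, beside 8.06% higher and 6.73% lower of all genes. The 3 greater ones are a share close to that of all genes. PPM1D (1.49, SE 0.27, adjusted p = 3.74e-05) was greater in Th17p cells, and so was FDXR (0.39, SE 0.10, adjusted p = 0.00222). CDKN1A (-1.16, SE 0.24, adjusted p = 0.000194), FAS (-0.88, SE 0.18, adjusted p = 0.000163), PSRC1 (-0.90, SE 0.20, adjusted p = 0.000575) and PERP (-0.90, SE 0.18, adjusted p = 0.000178) were lower in Th17p cells. In once-divided cells 3 were greater and 2 lower, beside 6.49% higher and 9.39% lower of all genes, with PPM1D (1.81, SE 0.27, adjusted p = 1.51e-06), PHLDA3 (1.62, SE 0.42, adjusted p = 0.00394) and RPS27L (0.38) greater and FAS (-0.58) and ABHD4 (-0.41) lower in Th17p cells. The 5 members called in once-divided cells are a share at or under that of all genes. That count of 5 fell to 3 without any 1 of Th17n DHEA replicate 10, Th17n methanol replicate 7 and Th17p DHEA replicate 7. In the fit on these groups alone the calls of RPS27L, FAS and ABHD4 ended (adjusted p = 0.101, 0.0744 and 0.149). The ABHD4 call (adjusted p = 0.0484) also ended without the filter, under rescaling, with well A4 in its labelled group, and without any 1 of 13 libraries. The RPS27L call ended without any 1 of the 3 libraries just named or Th17p methanol replicate 10, and the FAS call without Th17p DHEA replicate 9 (-0.46, adjusted p = 0.0602).

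**Figure D3:**
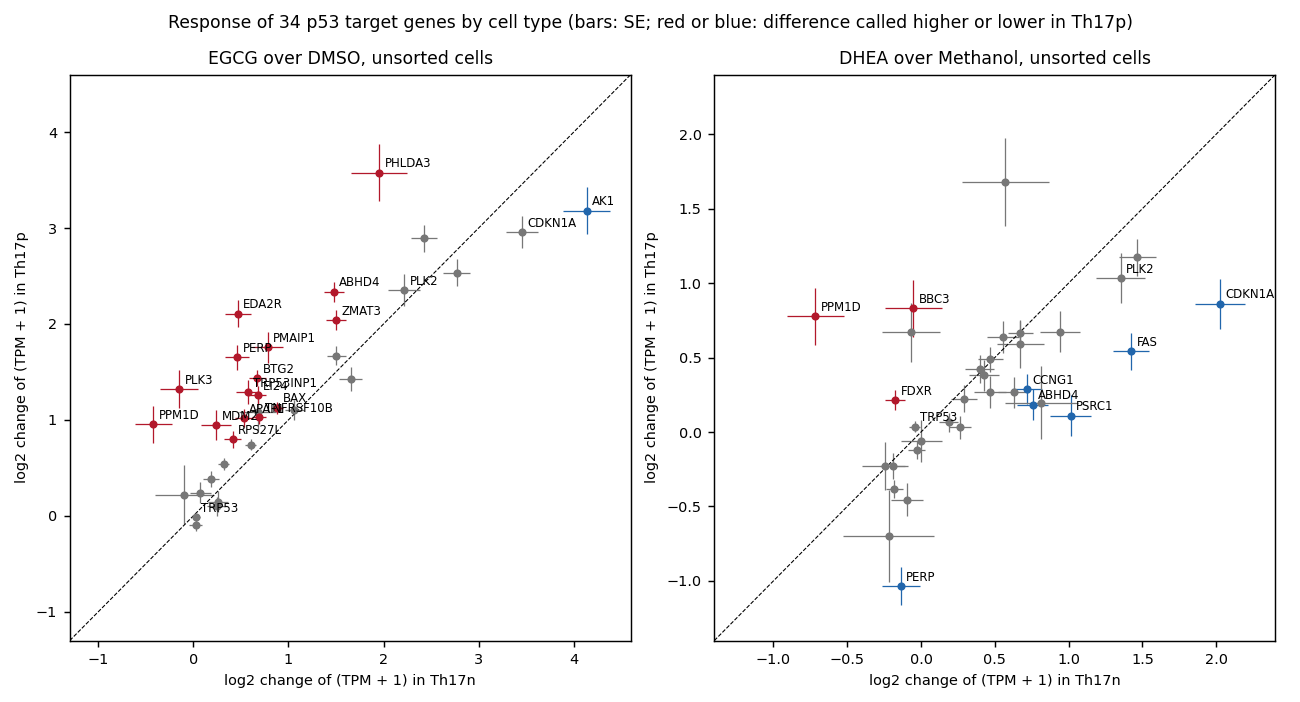
Log2 change of (TPM + 1) in unsorted Th17n cells (x axis) against unsorted Th17p cells (y axis), EGCG on the left and DHEA on the right, each point a member with its SE on both axes and the dashed line marking equal change. Red points, called larger in Th17p cells, lie above the line for EGCG with AK1 (blue) below it, and for DHEA PPM1D lies above and CDKN1A, FAS, PSRC1 and PERP below.

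Fewer members differed between once-divided and unsorted cells in solvent cultures than between the cell types. In Th17p cells 3 were called higher and 9 lower in once-divided than in unsorted cells, beside 8.63% higher and 10.8% lower of all genes. In Th17n cells 5 were higher and 5 lower, beside 5.8% higher and 16.1% lower of all genes, a split of all genes that became 1074 higher and 1188 lower calls under rescaling. The members' split became 8 higher and 3 lower under rescaling. BAX (0.13) and FDXR (0.14) were higher in once-divided Th17n cells by calls that ended without the filter and without any 1 of 8 (BAX) or 9 (FDXR) single libraries. The FDXR call also ended with well A4 in its labelled group (0.06, adjusted p = 0.576). PERP was lower in once-divided cells of both types (-0.71, SE 0.09, adjusted p = 4e-08 in Th17p and -0.56, SE 0.09, adjusted p = 4.87e-06 in Th17n). PMAIP1 was lower too (-0.39 and -0.35), calls lost without Th17p DMSO once-divided replicate 5 and Th17n DMSO once-divided replicate 4. PPM1D (-0.54, SE 0.14, adjusted p = 0.00339) and PHLDA3 (-0.72, SE 0.22, adjusted p = 0.0122) were lower in once-divided Th17p cells. In Th17n cells PSRC1 was higher (0.44, SE 0.10, adjusted p = 0.000843) and RRM2B lower (-0.40, SE 0.08, adjusted p = 9.13e-05). The Th17n count of 10 fell to 5 or 6 without any 1 of DMSO once-divided replicate 4, DMSO unsorted replicate 3, methanol once-divided replicate 6, and methanol unsorted replicates 7 and 8.

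For the EGCG response of Th17p cells limma called 0 of 34 members different between once-divided and unsorted cells, 3 had an unadjusted p under 0.05, and the fit on these groups alone called 1, beside 1.35% higher and 1.22% lower of all genes. Under rescaling the calls over all genes there split into 127 higher and 246 lower. In Th17n cells 5 members responded more after 1 division and 1 less, beside 10.8% higher and 2.53% lower of all genes (784 higher and 715 lower calls under rescaling). Under rescaling the members' own split was 4 higher and 4 lower, and their median went from 0.09 to 0.01. PERP (0.66, SE 0.19, adjusted p = 0.0114), PMAIP1 (0.78, SE 0.23, adjusted p = 0.0151), RRM2B (0.54, SE 0.16, adjusted p = 0.0141), CCNG1 (0.48, SE 0.15, adjusted p = 0.0201) and APAF1 (0.44) made up the former and FDXR (-0.35, SE 0.10, adjusted p = 0.00944) was the latter. With well A4 in its labelled group the FDXR difference was -0.19 (adjusted p = 0.341), its call lost. The APAF1 call was lost under rescaling, in the fit on these groups alone, with well A4 and without any 1 of 6 single libraries. PMAIP1 was also lost in the fit on these groups alone. The calls of CCNG1, PMAIP1 and RRM2B were lost without Th17n DMSO unsorted replicate 1, EGCG unsorted replicate 1 and DMSO once-divided replicate 1, respectively.

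The DHEA response of Th17p cells was called greater after 1 division for 7 members and lower for 3, beside 5.6% higher and 4.31% lower of all genes (487 higher and 679 lower calls under rescaling, and 5 higher and 3 lower members). PERP (1.18, SE 0.18, adjusted p = 7.28e-06), TNFRSF10B (0.48, SE 0.11, adjusted p = 0.00187) and TRIAP1 (0.35, SE 0.08, adjusted p = 0.00422) led the former, with CDKN1A (0.69), RPS27L (0.44), CCNG1 (0.48) and POLK (0.44) among them, and TRP53 (-0.21), SESN1 (-0.36) and FDXR (-0.30) made up the latter. The RPS27L call was lost under rescaling, and the CCNG1 call in the fit on these groups alone and without any 1 of 5 single libraries. The count of 10 fell to 5 without Th17p methanol unsorted replicate 8, and to 6 without DHEA once-divided replicate 10, DHEA unsorted replicate 6 or DHEA unsorted replicate 9. In Th17n cells 1 member differed, PERP (0.69, SE 0.18, adjusted p = 0.0135), with 0 in the other direction, beside 5.12% higher and 1.68% lower of all genes (220 higher and 332 lower calls under rescaling).

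EGCG and DHEA were given at different doses in different solvents, so what can be compared is each response to its own solvent. Averaged over both sorts, the response to EGCG exceeded that to DHEA for 26 members in Th17p cells and fell short for 2, beside 33.7% higher and 12.9% lower of all genes. In Th17n cells 19 were greater and 3 smaller, beside 25% higher and 11.7% lower of all genes. Rescaling turned the splits of all genes into 2434 higher and 2274 lower and 1900 higher and 1894 lower, and those of the members into 25 and 3 in Th17p and 18 and 3 in Th17n cells. In Th17p cells ABHD4 (2.10, SE 0.11, adjusted p = 4.41e-26), PERP (2.33, SE 0.13, adjusted p = 2.75e-24), BAX (1.03, SE 0.07, adjusted p = 1.17e-21), ZMAT3 (1.67, SE 0.11, adjusted p = 3.22e-21) and PSRC1 (2.12, SE 0.14, adjusted p = 1.57e-20) differed most clearly beside EDA2R. In Th17n cells AK1 (3.43, SE 0.25, adjusted p = 2.06e-18), PSRC1 (1.70, SE 0.14, adjusted p = 7.3e-16), AEN (0.64, SE 0.06, adjusted p = 2.51e-14), BAX (0.70, SE 0.07, adjusted p = 5.38e-14) and DCXR (1.42, SE 0.14, adjusted p = 2.71e-13) did.

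The members whose response was higher with DHEA than with EGCG were DDB2 (-0.46, SE 0.11, adjusted p = 0.000352 in Th17p and -0.39, SE 0.11, adjusted p = 0.00344 in Th17n) and FDXR in Th17p cells (-0.22, SE 0.07, adjusted p = 0.00534), and in Th17n cells also TRP53INP1 (-0.55, SE 0.13, adjusted p = 0.000257) and SESN1 (-0.24, SE 0.08, adjusted p = 0.0228). FAS responded more to EGCG in Th17p cells (0.88, SE 0.13, adjusted p = 2.22e-08), while in Th17n cells its difference of 0.20 (SE 0.13, adjusted p = 0.215) did not pass. Across the 34 members the responses to EGCG and to DHEA in unsorted cells had Pearson's r of 0.408 (Spearman's rho 0.377) in Th17p cells and 0.733 (rho 0.789) in Th17n cells, descriptions across genes that are not independent. In each cell type 29 of 34 changes were greater with EGCG.

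**Figure D4:**
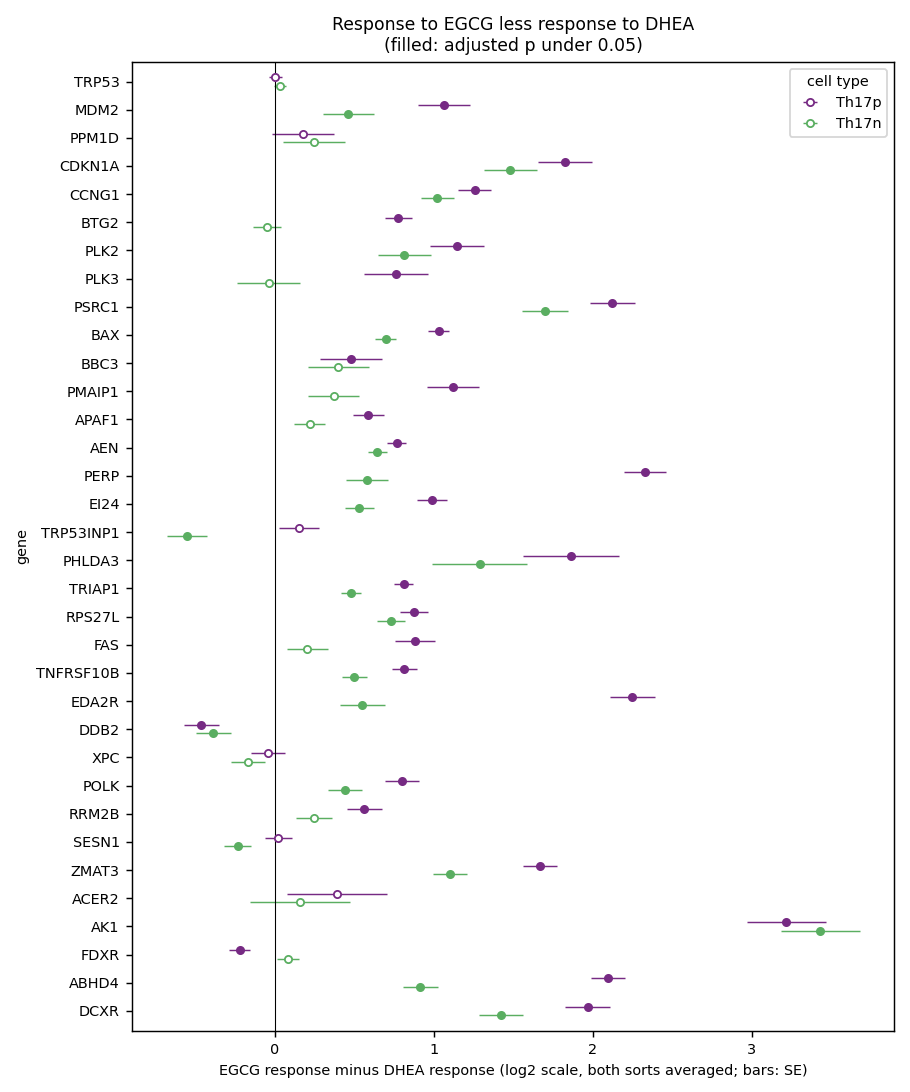
EGCG response minus DHEA response on the log2 scale (x axis, both sorts averaged, bars are SE) for 34 members (y axis) in Th17p (purple) and Th17n cells (green), filled where the adjusted p is under 0.05. Most points lie right of 0, AK1 farthest in both cell types, and DDB2 lies left of 0 in both.

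Beside the members, further known p53 targets, regulators of p53, and cell cycle genes that p53 is known to switch off through p21 and the DREAM repressor complex were counted. Of 19 tested further targets, EGCG gave 12 higher and 3 lower in unsorted Th17p cells (median log2 change 0.77), beside 30.1% higher and 14.9% lower of all genes, and 8 higher and 1 lower in unsorted Th17n cells (median 0.32), beside 21.7% higher and 13.5% lower of all genes. SESN2, a stress-induced sestrin (1.70, SE 0.12, adjusted p = 2.31e-20), EPHX1, an epoxide hydrolase (1.85, SE 0.14, adjusted p = 5.04e-18), GTSE1, which shuttles p53 out of the nucleus (0.93, SE 0.07, adjusted p = 1.36e-18), and the repair nuclease ERCC5 (1.18, SE 0.11, adjusted p = 3.25e-15) rose in unsorted Th17p cells. These genes rose in once-divided cells of both types as well. There the list gave 7 higher and 1 lower in Th17p cells (all genes 33.7% higher and 11.9% lower). In Th17n cells it gave 10 higher and 0 lower (all genes 28.1% higher and 6.77% lower). The 7 of 19 higher in Th17p cells lie close to the share of all genes. With DHEA the list gave 4 higher and 3 lower in unsorted Th17p cells, beside 20.9% higher and 26.8% lower of all genes, and 7 higher and 5 lower in unsorted Th17n cells, beside 20.8% higher and 25.3% lower of all genes. In once-divided cells DHEA gave 5 higher and 2 lower in Th17p, beside 18.1% higher and 19.2% lower of all genes. In once-divided Th17n cells it gave 8 higher and 5 lower, beside 22.1% higher and 14.6% lower. The DHEA counts of the list thus include shares close to those of all genes. Examples are 4 of 19 higher in unsorted Th17p and 5 of 19 lower in unsorted Th17n cells. DDIT4, an inhibitor of growth signalling, rose (0.96, SE 0.19, adjusted p = 1.59e-05 in unsorted Th17p cells), while PML, a nuclear body protein, fell (-0.29, SE 0.06, adjusted p = 8.89e-05), and in unsorted Th17n cells EPHX1 rose (1.36, SE 0.14, adjusted p = 1.2e-12) and PLTP, a lipid transfer protein, fell (-1.22, SE 0.17, adjusted p = 5.11e-09).

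The 17 tested regulators of p53 were called in both directions. Their medians lay between -0.07 and 0.08 on the log2 scale. EGCG gave 4 higher and 3 lower in unsorted Th17p and 1 higher and 4 lower in unsorted Th17n cells, and DHEA 0 higher and 6 lower and 2 higher and 4 lower. The shares of all genes in these 4 comparisons were 30.1% higher and 14.9% lower, 21.7% higher and 13.5% lower, 20.9% higher and 26.8% lower, and 20.8% higher and 25.3% lower. Several counts of the list lie close to these shares. Examples are 3 of 17 lower with EGCG in unsorted Th17p and 4 of 17 lower with DHEA in unsorted Th17n cells. RCHY1, a ubiquitin ligase for p53 that is itself a target, rose with EGCG in unsorted Th17p cells (0.45, SE 0.07, adjusted p = 9.46e-08). NBN, a sensor of DNA breaks, fell in all 8 compound comparisons, with log2 changes of -0.39 (SE 0.07, adjusted p = 4.99e-06) with EGCG and -0.55 (SE 0.07, adjusted p = 1.16e-09) with DHEA in unsorted Th17p cells.

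By their medians the 18 cell cycle genes went the other way. EGCG gave 0 higher and 15 lower in unsorted Th17p cells (median -0.51) and 1 higher and 10 lower in unsorted Th17n cells (median -0.22). DHEA gave 0 higher and 12 lower and 0 higher and 13 lower (medians -0.31 and -0.36). Under rescaling these 4 counts were 0 and 15, 1 and 11, 1 and 10, 0 and 12. On the deposited scale EGCG gave 30.1% higher and 14.9% lower of all genes in Th17p, and 21.7% and 13.5% in Th17n cells. The shares with DHEA were 20.9% higher and 26.8% lower, and 20.8% and 25.3%. PLK1, the mitotic kinase, fell with EGCG (-0.88, SE 0.07, adjusted p = 1.28e-18 in unsorted Th17p and -0.35, SE 0.07, adjusted p = 1.44e-05 in unsorted Th17n cells) and with DHEA (-0.69, SE 0.07, adjusted p = 3.89e-14 and -0.66, SE 0.07, adjusted p = 1.59e-13). CDC20, the activator of the anaphase-promoting complex, fell with DHEA in unsorted Th17n cells (-0.93, SE 0.06, adjusted p = 9.9e-20). In once-divided Th17p cells EGCG gave 1 higher and 14 lower, and in once-divided Th17n cells 1 higher and 7 lower. The shares of all genes were 33.7% higher and 11.9% lower, and 28.1% higher and 6.77% lower. Under rescaling the counts of the list were 1 higher and 14 lower, and 0 higher and 14 lower. Calls over all 10672 genes were then 2430 higher and 2241 lower, and 1642 higher and 1671 lower. With DHEA once-divided Th17p cells gave 2 higher and 11 lower, with changes up to 1.76, and once-divided Th17n cells 2 higher and 10 lower. Of all genes, 18.1% were higher and 19.2% lower, and 22.1% higher and 14.6% lower. Under rescaling these DHEA counts were 2 and 12, and 2 and 10. The shares of cells in each phase of the cycle were not measured.

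**Figure D5:**
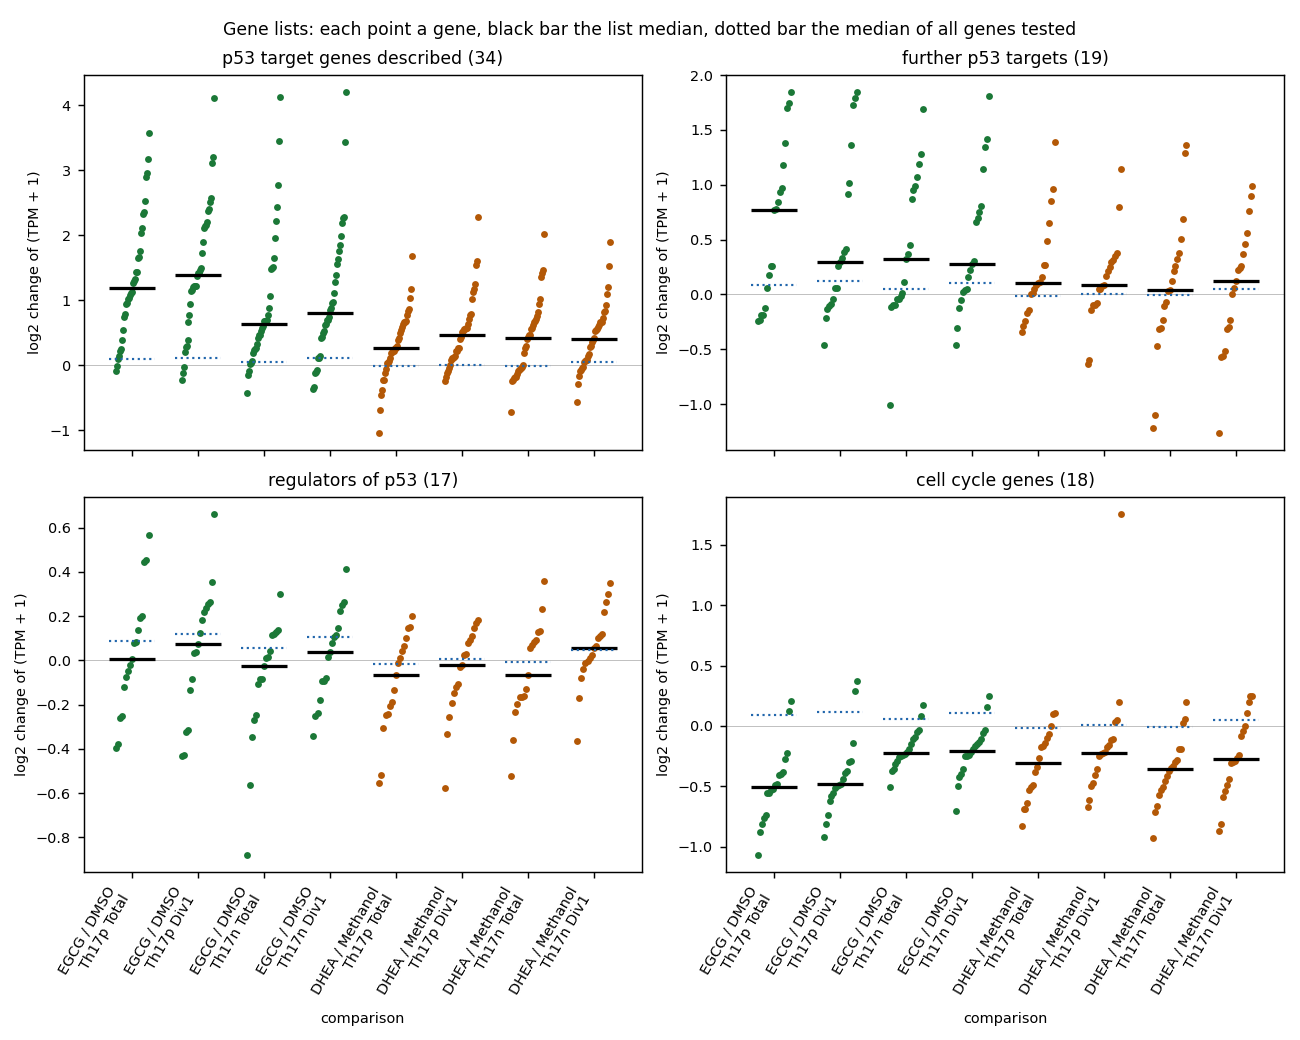
Log2 change of (TPM + 1) in the 8 compound comparisons (x axis) for the members, further p53 targets, regulators of p53 and cell cycle genes; each point is a gene, the black bar the median of the list and the dotted bar the median of all genes tested. The members' medians lie above the dotted bars throughout, and those of the cell cycle genes below. The vertical axes differ between panels.

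Markers of other cells differed between compound and solvent libraries in several groups. The summed level of 9 genes of CD8 T and NK cells was 9.61 to 15.1 TPM with DMSO and 19.4 to 31.9 TPM with EGCG in unsorted Th17p cells, with means of 12.1 ± 2.04 and 26.1 ± 5.63 TPM (SD, n = 5 each) and no overlap. With methanol and DHEA it was 14.9 to 23.2 and 22.6 to 31.3 TPM in unsorted Th17p cells. In unsorted Th17n cells it was 18.04 to 26.4 and 31.3 to 45.9 TPM, with means of 22.3 ± 3.27 and 41.4 ± 5.74 TPM (SD, n = 5 each), again without overlap. Of the 9 genes, CD8B1, NKG7 and KLRD1 carried the sum, and the defining CD8A, GZMA, KLRB1C, EOMES, NCR1 and KLRK1 stood at no more than 0.863 TPM in any library. The sum in unsorted Th17n cells was 14.1 to 22.8 TPM with EGCG, against 11.5 to 21.3 TPM with DMSO.

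The sum of 6 B cell genes in unsorted Th17n cells was 0.996 to 1.85 TPM with methanol and 2.28 to 5.61 TPM with DHEA. Once-divided Th17n cells held 1.17 to 2.24 and 3.38 to 4.45 TPM. The DHEA libraries were the higher without overlap in both sorts, at sums that reached 5.61 TPM, and the sum of 4 myeloid genes reached 1.69 TPM at most in any library.

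The summed Th17 genes, mainly IL17F, were 2126 to 2993 TPM with DMSO and 456 to 717 TPM with EGCG in unsorted Th17p cells, and 1534 to 2172 and 407 to 583 TPM with methanol and DHEA. In unsorted Th17n cells the sum was 6605 to 7998 TPM with DMSO and 6289 to 7741 TPM with EGCG, ranges that overlapped. The once-divided Th17n cells held 3745 to 4646 TPM with DMSO and 7643 to 8760.0 TPM with EGCG, the EGCG libraries all being higher. With methanol and DHEA the sum was 4665 to 6040.2 and 1026 to 1718 TPM in unsorted Th17n cells, the DHEA libraries all being lower. The part of these shifts in the changes of the members was not tested.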

How the data were processed

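RNA from 79 libraries of mouse T cells was sequenced after polyA selection, per the labels' protocols, and 78 libraries were used. The deposited table, made by the authors, holds TPM per gene symbol. Per the submitters' processing notes reads were handled with Trimmomatic and kallisto, and mm10 was named as the genome build. Versions are not given in the sources used here. Summed TPM per library ran from 880077 to 895017 and the table has 0 mitochondrially encoded rows, so values are relative to the genes listed. Read depth is unknown, and no counting error was computed. Nothing in the labels ties a library to a mouse, so p-values measure the spread between these libraries.

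Values were analysed as log2(TPM + 1), computed from the deposited TPM, for genes with at least 1 TPM in at least 4 libraries. limma 3.58.1 (R 4.3.3) was fitted over 16 group means with an intensity trend, 22 comparisons were taken from that fit, and p-values were adjusted by Benjamini-Hochberg over all 10672 genes of each comparison. A member was called at an adjusted p under 0.05. A fold on this scale understates the change of low genes, and ratios of mean TPM are printed as fold. The fit was tested on simulated data. Tables and plots were made with Python 3.11.15, pandas 2.3.3, numpy 2.4.6 and matplotlib 3.10.9.

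The members and the other gene lists were chosen with earlier results of these data known. Values per library are given for TRP53, CDKN1A, MDM2, PHLDA3, ZMAT3, CCNG1, BAX, BBC3, PMAIP1 and FAS, and for the 6 called members with the smallest p and a mean of at least 5 TPM in each compound comparison. Up to 6 called members were named in the other comparisons, up to 4 per other list, and any further member named was chosen after its values were seen. Promoter windows came from RefSeq (GRCm38.p6) and annotation of the sites from GENCODE. Alternatives were a pseudocount of 0.1, no filter, TPM rescaled by the median ratio, a fit limited to the groups of the comparison, a replicate block by well column, well A4 put back in its labelled group, and each library left out in turn.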

Additional observations from a re-analysis of the deposited data

Results flagged for a closer look

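Among 160 combinations of 10 members and 16 groups, 9 held a library far from the others of its group, measured by its gap to the nearest library over the range of the group. Chance alone sets apart about 1 in 20 such groups. Replicate 1 of the EGCG groups was the low library in 3 of them. ZMAT3 was at 12.6 TPM in replicate 1 of once-divided Th17n cells with EGCG, against 19.1 to 20.8 TPM in the others, and at 10.6 TPM in replicate 1 of unsorted Th17n cells with EGCG, against 15.8 to 17.5 TPM. BBC3 was at 1.56 TPM in replicate 1 of once-divided Th17n cells with EGCG, against 2.84 to 3.09 TPM.

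ZMAT3 was also low, at 10.5 TPM, in replicate 6 of once-divided Th17p cells with DHEA, where the others held 13.02 to 13.9 TPM. CCNG1 stood at 53.6 TPM in replicate 4 of once-divided Th17n cells with DMSO, against 58.6 to 59.7 TPM, and at 86.3 TPM in replicate 1 of unsorted Th17n cells with DMSO, against 69.9 to 71.9 TPM. BAX was at 354 TPM in replicate 9 of unsorted Th17p cells with methanol, against 386 to 389 TPM. FAS was at 17.1 TPM in replicate 4 of once-divided Th17n cells with DMSO, against 13.3 to 13.7 TPM, and at 50.1 TPM in replicate 3 of once-divided Th17n cells with EGCG, against 35.1 to 39.2 TPM.

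By the test of the difference between responses, the EGCG response differed between Th17p and Th17n cells for 17 members in unsorted cells, beside 12.4% higher and 7.55% lower of all genes, and for 13 in once-divided cells, beside 9.12% and 8.38%. Between the sorts of Th17n cells it differed for 6, beside 10.8% and 2.53%. The DHEA response differed between the cell types for 9 members in unsorted cells, beside 8.06% and 6.73% of all genes, and for 5 in once-divided cells, beside 6.49% and 9.39%. Between the sorts it differed for 10 members in Th17p cells, beside 5.6% and 4.31%, and for 1 in Th17n cells, beside 5.12% and 1.68%. Of 34 tested members, the 5 and the 1 are shares at or under those of all genes. Responses to the compounds differed for 28 members in Th17p cells, beside 33.7% and 12.9% of all genes, and for 22 in Th17n cells, beside 25% and 11.7%. No cause of these differences was tested.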

How the results depend on the processing

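No called change of a named member turned its direction under any alternative. Counts of called members moved by over 1.5 times in few cases, and the cause was not tested. Without the filter, once-divided against unsorted Th17n cells went from 10 called members to 4, and the DHEA response of Th17p cells by sort from 10 to 6. The latter was also 6 with well A4 in its labelled group and 6 in the fit on the groups compared alone. That fit called 1 member, not 0, in the EGCG response of Th17p cells by sort, and 2, not 5, in the DHEA response of once-divided cells by cell type. Leaving out each library in turn gave 5 to 10 for once-divided against unsorted Th17n cells, 3 to 6 for the DHEA response of once-divided cells by cell type, and 5 to 12 for the DHEA response of Th17p cells by sort. Over all genes, the EGCG response of Th17p cells by sort had 144 higher and 130 lower calls, and 283 and 196 in that fit, 82 and 78 with well A4, and 412 and 257 with the replicate block. The DHEA response of Th17n cells by sort had 546 and 179, then 194 and 66, 319 and 116, and 979 and 301 in the same order.

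The replicate number is the well column, and no label says that it pairs the libraries. Of 38 same-column pairs, 11 had a correlation of deviations above 0.1 (range -0.002 to 0.276), while 30 of 38 treated libraries correlated best with their own column. In every compound comparison the median correlation was higher within a column (0.052 to 0.136) than between columns (-0.039 to -0.012). The main fit took no account of the column and treated all libraries as independent. With the column as a replicate block, 8 members, not 5, were called in the DHEA response of once-divided cells by cell type, and counts in the other comparisons stayed within 1.5 times. Among the members checked singly, the block also brought increases of PHLDA3 with DHEA in Th17n cells past the threshold (adjusted p = 0.0026 unsorted and 0.000701 once divided). So it did for BBC3 in once-divided Th17n cells (0.0136 with EGCG and 0.0222 with DHEA) and for DDB2 with EGCG in unsorted Th17n cells (0.0496). Lower calls of members rose too. With EGCG they went from 0 to 1 in unsorted and from 2 to 3 in once-divided Th17n cells. With DHEA they went from 4 to 5 in unsorted Th17p cells, and from 3 to 4 in both sorts of Th17n cells. The members behind these added lower calls are not named here. Depth is unknown, so changes of members near 1 TPM (EDA2R, ACER2, AK1 and BBC3 with solvent) are the least certain.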

Other observations

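Replicate 1 of the EGCG groups held the lowest value of its group in 67 of 136 combinations of member and group, against 12 to 26 for each of the other EGCG replicates. PPM1D, PLK3, BAX, APAF1, PERP, PHLDA3, TRIAP1 and ZMAT3 were lowest there in all 4 EGCG groups. In the DMSO groups replicate 1 was lowest in 27 of 136, and replicate 2 in 42. PLK3 and BBC3 were lowest in replicate 1 of all DMSO groups, so PLK3 was low in that column with DMSO as with EGCG. Replicate 1 shares a well column across groups, and no label says what else it shares.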
